A study of Mus musculus with 9 samples.

Results

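Securin (Pttg1) and 9 other regulators of mitosis, Espl1, Plk1, Ccnb1, Aurka, Aurkb, Bub1, Cdc20, Mad2l1 and Cdk1, were compared between mouse cells. These were spermatogonial stem cells (SSC) and induced pluripotent stem cells (iPSC) derived from SSC or from fibroblasts. The genes were chosen by measured values in one respect: Pttg1 was selected because its FPKM level was higher in iPSC from SSC (SSCiPSC) than in iPSC from fibroblasts (fiPSC), and the other 9 were chosen for their place in the same pathway, to see whether they followed it. The difference in Pttg1 between the 2 kinds of iPSC is therefore described here without a test. These 10 genes are 10 of the 12809 genes that could be named in a table of 54913 transcribed loci, and all 10 had a locus.

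The study compared RNA of 9 libraries, 3 each of SSC, SSCiPSC and fiPSC, as FPKM, the fragments per kilobase of transcript and per 1000000 fragments. Fibroblasts were not among the libraries, so fiPSC are set against SSC, which are not their source cells. All cells came from one mouse strain with a pair of alleles, the transactivator Gt(ROSA)26Sortm1(rtTA*M2)Jae, expressed from a ubiquitous locus, and the doxycycline-responsive factors Col1a1tm3(tetO-Pou5f1,-Sox2,-Klf4,-Myc)Jae, so that SSC carried the transgenes too. SSC were uncultured cells (passage 0) of testes at postnatal day 6, enriched with magnetic beads for the surface marker Gfra1. The iPSC were clonal lines, labelled passages 10 to 11 where the methods give later ones, obtained from such SSC or from male fetal fibroblasts, and were purified for SSEA1 against feeder cells; the methods state that doxycycline had been withdrawn by then, while the labels list it in the medium. The labels do not say whether the 3 libraries of a group came from separate lines or animals, so the tests measure the spread between libraries only.

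Depth differed between groups. Counted in 1000000 fragments, SSC replicates 1, 2 and 3 held 1.75, 4.58 and 1.37, the SSCiPSC libraries 15.7, 13.7 and 15.1, and the fiPSC libraries 13.2, 17.5 and 15.3. For a transcript of 2000 bp at 10 FPKM this amounts to 32.4, 84.6 and 25.3 fragments in SSC and to at least 244 in any iPSC library. The least abundant value among the 10 genes, Plk1 at 4.30 FPKM in SSC replicate 3, thus rested on few fragments, and the spread in SSC includes this counting error.

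The cells were compared with their labels through marker genes. Of 9 pluripotency markers with a locus, 8 exceeded 1 FPKM in each iPSC library. The summed level of the 9 was 2023, 2236 and 1892 FPKM in SSCiPSC and 1709, 1647 and 1869 FPKM in fiPSC, with Pou5f1 the most abundant. In SSC the same sum was 65.3, 63.0 and 46.4 FPKM, most of it Lin28a (44.3, 45.4 and 32.2 FPKM). There 3, 4 and 4 of the 9 exceeded 1 FPKM, and Nanog was listed at 0 in all 3 libraries. The marker below 1 FPKM in iPSC, Fut4, went the other way, with means of 0.868 FPKM in SSC, 0.0459 FPKM in SSCiPSC and 0.0586 FPKM in fiPSC. All 11 germ line markers with a locus exceeded 1 FPKM in each SSC library, with Dazl the most abundant (194, 263 and 174 FPKM) and a sum of 590, 712 and 476 FPKM. In the iPSC libraries 7 or 8 of the 11 still did, with a sum of 163 to 297 FPKM. Of these Sall4, which pluripotent cells express as well, Kit and Stra8 had higher means in iPSC (95.4, 46.1 and 19.1 FPKM in SSCiPSC and 78.5, 25.9 and 23.7 FPKM in fiPSC) than in SSC (37.2, 9.71 and 12.1 FPKM), with overlapping values for Stra8.

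SSC libraries also held transcripts of other testicular cells. All 8 Sertoli cell markers with a locus exceeded 1 FPKM in each SSC library, with sums of 1236, 1251 and 986 FPKM, and the most abundant, Clu, stood at 713, 645 and 538 FPKM. In iPSC the sum was 175 to 309 FPKM, nearly all of it Rhox5, which stem cells express as well (162 to 296 FPKM). All 4 Leydig cell markers did so too, with sums of 164, 132 and 255 FPKM and Cyp11a1 the most abundant, whereas in iPSC their sum was at most 0.358 FPKM and Lhcgr and Nr5a1 were listed at 0 in all 6 libraries. Macrophage and mast cell markers (8 of 8) summed to 98.5, 216 and 714 FPKM in SSC, with the mast cell tryptase Tpsab1 at 50.3, 163 and 487 FPKM. In iPSC 2 to 4 of the 8 exceeded 1 FPKM and the sum was 37.3 to 60.8 FPKM, most of it Kit, which is on the germ line list as well, while Tpsab1 was listed at 0 in all 6 libraries. The macrophage marker Cd68 had a mean of 8.94 FPKM in SSC, 10.9 FPKM in SSCiPSC and 11.0 FPKM in fiPSC. Peritubular and endothelial markers summed to 193, 134 and 159 FPKM in SSC, with Acta2 the most abundant, and to 94.6 to 140 FPKM in iPSC, most of it Pecam1. Of 9 fibroblast markers, 6, 7 and 8 exceeded 1 FPKM in SSC replicates 1, 2 and 3, with sums of 134, 126 and 355 FPKM. A collagen gene was the most abundant there. In each iPSC library 7 or 8 of the 9 exceeded 1 FPKM, and the sum was 150 to 241 FPKM, most of it Fn1. Col3a1 had a mean of 52.0 FPKM in SSC, 9.14 FPKM in SSCiPSC and 9.06 FPKM in fiPSC. Thy1 had means of 0.867, 3.09 and 3.90 FPKM in the same order, with overlapping values. The part of these cells in the differences from SSC was not tested.

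Anaphase begins when separase, the protease encoded by Espl1, cuts the cohesin rings that hold sister chromatids together. Securin binds separase, keeps it inactive and also helps it to fold. When all kinetochores are attached to the spindle, the anaphase-promoting complex with its activator Cdc20 marks securin and cyclin B for destruction, which frees separase and lowers the activity of Cdk1. Until then the spindle checkpoint, which includes Mad2l1 and the kinase Bub1, holds Cdc20 back. Plk1 and the Aurora kinases drive spindle assembly, chromosome attachment and the removal of cohesin from chromosome arms. Transcripts of these genes are known to accumulate together in late S phase, G2 and mitosis, and rapidly dividing cells such as pluripotent cells carry many of them.

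Such genes often carry near their start a short element of the cell cycle genes homology region type, TTTGAA or TTCGAA, with CCAAT boxes upstream of it, and the start regions of the 10 genes were therefore read. A RefSeq window (GRCm38.p6, 250 bases before to 50 after the transcript start, 300 bases) was held for 9 of the 10 genes, all but Aurkb. The letters TTTGAA, their variant TTCGAA and the box CCAAT were each searched on both strands, and no matches in the 9 windows overlapped. Windows of Cdk1, Cdc20, Bub1, Ccnb1 and Pttg1 are shown 5′ to 3′ on the strand of the gene, because they cover the range from several matches to none, with matches in capitals (ATTGG is CCAAT read on the other strand).
Cdk1 (chr10:69352863-69353162, minus strand): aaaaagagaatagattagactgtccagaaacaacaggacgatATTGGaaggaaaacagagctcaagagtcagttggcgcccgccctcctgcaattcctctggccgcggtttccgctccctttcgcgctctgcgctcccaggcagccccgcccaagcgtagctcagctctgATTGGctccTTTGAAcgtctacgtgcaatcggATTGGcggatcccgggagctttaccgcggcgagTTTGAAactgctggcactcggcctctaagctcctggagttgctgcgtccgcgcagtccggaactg
Cdc20 (chr4:118437294-118437593, minus strand): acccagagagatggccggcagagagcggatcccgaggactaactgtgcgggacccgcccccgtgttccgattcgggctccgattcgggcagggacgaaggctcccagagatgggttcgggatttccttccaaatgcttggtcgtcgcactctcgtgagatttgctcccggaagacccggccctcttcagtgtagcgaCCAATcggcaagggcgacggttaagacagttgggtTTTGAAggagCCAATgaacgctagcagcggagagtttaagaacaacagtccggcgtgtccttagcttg
Bub1 (chr2:127831810-127832109, minus strand): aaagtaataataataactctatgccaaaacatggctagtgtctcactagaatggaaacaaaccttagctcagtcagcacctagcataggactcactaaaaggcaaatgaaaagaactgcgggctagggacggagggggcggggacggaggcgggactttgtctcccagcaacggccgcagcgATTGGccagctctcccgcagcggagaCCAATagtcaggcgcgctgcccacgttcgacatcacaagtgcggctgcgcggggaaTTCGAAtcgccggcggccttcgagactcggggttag
Ccnb1 (chr13:100786437-100786736, minus strand): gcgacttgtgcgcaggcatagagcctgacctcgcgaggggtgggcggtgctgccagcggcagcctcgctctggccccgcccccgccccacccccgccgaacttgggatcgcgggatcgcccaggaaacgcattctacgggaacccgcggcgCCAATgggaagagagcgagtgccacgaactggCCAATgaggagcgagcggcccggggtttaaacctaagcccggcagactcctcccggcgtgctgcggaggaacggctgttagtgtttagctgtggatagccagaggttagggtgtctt
Pttg1 (chr11:43425932-43426231, minus strand): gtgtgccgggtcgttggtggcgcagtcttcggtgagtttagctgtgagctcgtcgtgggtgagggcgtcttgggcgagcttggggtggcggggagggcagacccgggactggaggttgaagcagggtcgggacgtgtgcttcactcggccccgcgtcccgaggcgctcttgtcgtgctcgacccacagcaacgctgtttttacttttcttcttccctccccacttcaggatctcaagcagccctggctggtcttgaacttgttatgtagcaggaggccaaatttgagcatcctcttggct

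TTTGAA stood in 5 of the 9 windows (Espl1, Plk1, Aurka, Cdc20 and Cdk1) and in 17.9% of all 32851 windows. TTCGAA was found only in Bub1 among the 9, and in 1.56% of all windows. CCAAT was present in 7 of the 9 and in 37.4% of all windows, and 6 of the 9 held CCAAT together with TTTGAA or TTCGAA, against 7.52% of all windows. Counting the first base of a match from the start, TTTGAA lay at -71 and -15 in Cdk1 and CCAAT at -208, -80 and -48. In Cdc20, CCAAT lay at -53 and -8 and TTTGAA at -18. Ccnb1 had CCAAT only, and the windows of Pttg1 and Mad2l1 had none of the 3 strings. The RefSeq start lies further inside the 5′ end of the expressed locus than the window reaches in Espl1 (13765 bp), Aurka (10613 bp), Plk1 (7885 bp), Pttg1 (526 bp) and Cdc20 (345 bp), whether or not the window held a match. These matches describe letters and not bound sites.

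Pttg1 lies on chromosome 11 (GRCm38, 43420250 to 43426251, minus strand; its longest coding transcript has 4 exons and 1674 bases), and its locus (43420176 to 43426507) covered the whole gene with no other locus over it. Its level was 17.1, 37.5 and 33.4 FPKM in SSC, 263, 222 and 211 FPKM in SSCiPSC and 89.6, 85.0 and 84.5 FPKM in fiPSC. The 3 groups did not overlap, and fiPSC stood between SSC and SSCiPSC. Group means were 29.3 ± 10.8, 232 ± 27.6 and 86.4 ± 2.82 FPKM (SD, n = 3 each). The fiPSC mean was 0.372 of the SSCiPSC mean, a log2 fold change of -1.41 on the log2(FPKM + 1) scale, which is used for all log2 fold changes here. Among the 5639 named genes that averaged 10 FPKM or more in the 6 iPSC libraries, the median log2 fold change was -0.10, and only Cyct, a testis cytochrome c, had a lower one than Pttg1 (-2.00). From SSC to SSCiPSC the difference in Pttg1 was 3.01 (7.91-fold), and from SSC to fiPSC it was 1.60 (2.94-fold). Both are given without a test too, because the SSCiPSC and fiPSC values served to choose the gene.

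**Figure D1:**
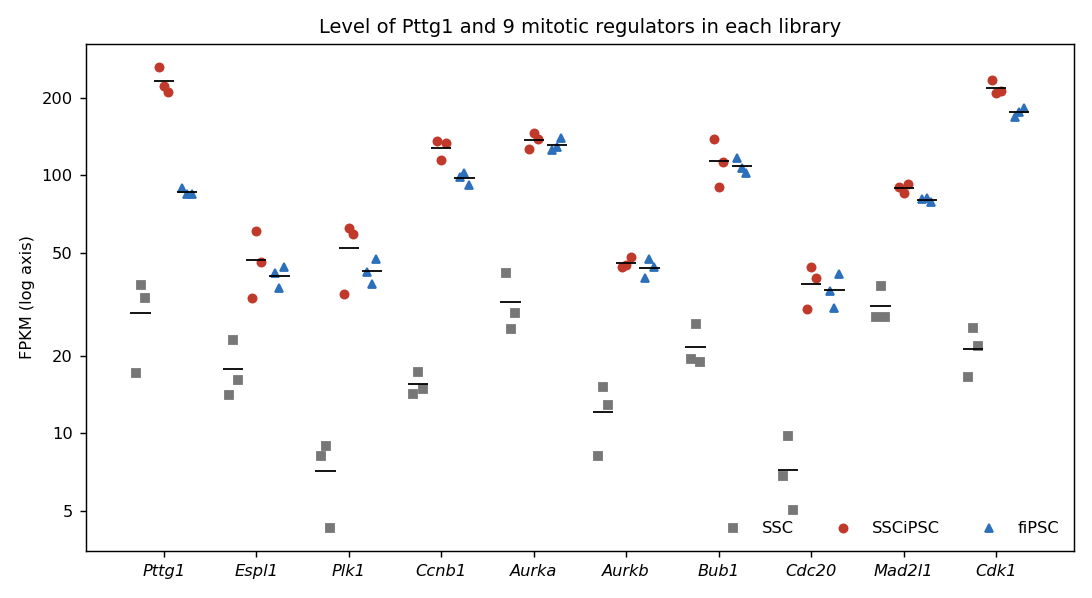
FPKM on a log axis for the 10 genes in the 3 libraries of SSC (grey squares), SSCiPSC (red circles) and fiPSC (blue triangles), with a black line at each group mean. All 6 iPSC values lie above all 3 SSC values for every gene. The widest gap between the 2 kinds of iPSC is that of Pttg1, which was chosen for this difference, at 211 to 263 FPKM against 84.5 to 89.6 FPKM. Ccnb1, Mad2l1 and Cdk1 do not overlap between them either, with narrower gaps.

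Espl1, encoding separase, the direct partner of securin, lies on chromosome 15 (102296266 to 102324357, plus strand). Its level was 14.1, 22.9 and 16.1 FPKM in SSC, 33.5, 61.0 and 46.0 FPKM in SSCiPSC and 41.7, 36.5 and 44.2 FPKM in fiPSC. The 2 kinds of iPSC overlapped, and the SSCiPSC libraries were the more scattered. SSCiPSC replicate 1, the highest in Pttg1, was the lowest of all iPSC libraries in Espl1. The difference between fiPSC and SSCiPSC was -0.16 (95% confidence interval -0.66 to 0.34, adjusted p = 0.821, limma). Per library, the ratio of Pttg1 to Espl1 FPKM was 1.21, 1.64 and 2.07 in SSC, 7.85, 3.64 and 4.59 in SSCiPSC and 1.91 to 2.33 in fiPSC. The SSCiPSC ratios thus stood above those of the other 6 libraries, which describes the choice of Pttg1 and is not tested.

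Cdk1, the kinase that drives entry into mitosis, and Ccnb1, its cyclin B1 partner, had the lowest estimates after Pttg1 between the 2 kinds of iPSC. Cdk1 (chromosome 10, 69335146 to 69352938, minus strand) stood at 16.6, 25.6 and 21.8 FPKM in SSC, at 235, 208 and 212 FPKM in SSCiPSC and at 169, 176 and 182 FPKM in fiPSC. Ccnb1 (chromosome 13, 100778650 to 100786570, minus strand) stood at 14.3, 17.3 and 14.9 FPKM in SSC, at 136, 115 and 133 FPKM in SSCiPSC and at 98.2, 102 and 91.9 FPKM in fiPSC. In each, every fiPSC value was below every SSCiPSC value, by much less than in Pttg1. The difference was -0.31 for Cdk1 (95% confidence interval -0.55 to -0.07, unadjusted p = 0.0170, adjusted p = 0.327) and -0.38 for Ccnb1 (-0.64 to -0.13, unadjusted p = 0.00967, adjusted p = 0.290), so neither passed the threshold of an adjusted p below 0.05 in limma.

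A near copy of Ccnb1 on chromosome 7, the pseudogene Ccnb1-ps, was listed at 13.7, 22.2 and 9.50 FPKM in SSC, 116, 115 and 117 FPKM in SSCiPSC and 91.3, 84.4 and 90.6 FPKM in fiPSC. Reads of the gene and the copy may be shared between them, which makes the level of Ccnb1 uncertain. With the values of both summed, the difference between fiPSC and SSCiPSC was -0.39 (adjusted p = 0.247), against -0.38 for Ccnb1 alone.

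Cdc20, the activator that targets securin for destruction, was among the least abundant of the 10. It stood at 6.85, 9.80 and 5.06 FPKM in SSC, 30.3, 44.0 and 40.0 FPKM in SSCiPSC and 35.6, 30.7 and 41.5 FPKM in fiPSC, and the iPSC groups overlapped (log2 fold change -0.07, 95% confidence interval -0.49 to 0.34, adjusted p = 0.908). Elovl1 shares part of its interval on the opposite strand. The locus table keeps strands apart, and Cdc20 was read from the locus on its own strand.

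The spindle checkpoint genes differed in how evenly they were expressed. Mad2l1, whose protein holds Cdc20 inactive, was at 28.3, 37.4 and 28.2 FPKM in SSC, 90.3, 85.7 and 92.7 FPKM in SSCiPSC and 81.2, 81.6 and 78.7 FPKM in fiPSC. All fiPSC values lay just below all SSCiPSC values (-0.15, 95% confidence interval -0.37 to 0.07, adjusted p = 0.568), and its locus covered only 48.7% of the annotated gene. Bub1, a checkpoint kinase of kinetochores, was at 19.5, 26.5 and 19.0 FPKM in SSC, 139, 89.9 and 112 FPKM in SSCiPSC and 117, 106 and 103 FPKM in fiPSC. Its fiPSC values fell inside the range of SSCiPSC (-0.04, -0.43 to 0.35, adjusted p = 0.950).

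Among the mitotic kinases, Plk1 had the widest interval. It stood at 8.14, 8.91 and 4.30 FPKM in SSC, 34.6, 62.4 and 59.4 FPKM in SSCiPSC and 42.1, 37.8 and 47.4 FPKM in fiPSC. SSCiPSC replicate 1 was below all fiPSC libraries and the other SSCiPSC replicates above them (-0.25, 95% confidence interval -0.79 to 0.29, adjusted p = 0.713).

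Aurka, the spindle pole kinase, was at 41.9, 25.4 and 29.2 FPKM in SSC, 126, 146 and 139 FPKM in SSCiPSC and 125, 129 and 139 FPKM in fiPSC. Aurkb, the kinase of the chromosomal passenger complex, was at 8.18, 15.1 and 12.9 FPKM in SSC, 44.1, 45.0 and 48.4 FPKM in SSCiPSC and 39.9, 47.3 and 44.3 FPKM in fiPSC. The Aurka locus extends over Cstf1, a gene of the opposite strand that has its own locus. Both Aurora kinases overlapped between the 2 kinds of iPSC, with differences of -0.06 each and 95% confidence intervals of -0.31 to 0.19 for Aurka and -0.32 to 0.20 for Aurkb. A second locus without strand, with a mean of 29.3 FPKM over the 9 libraries, lies over Aurkb, and the difference with both loci summed was -0.37 (adjusted p = 0.504).

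In the comparisons with SSC, a rise or a fall means an adjusted p below 0.05 in limma. From SSC to SSCiPSC, all 9 genes other than Pttg1 rose, against 26.2% of the 36544 loci tested. With 1 locus per named gene, 4131 of 10912 rose. The rise of the 9 ranged from 2.64-fold for Espl1 (log2 fold change 1.34 ± 0.27 SE, adjusted p = 0.00696) and 2.86-fold for Mad2l1 to 8.25-fold for Ccnb1 and 10.2-fold for Cdk1 (3.32 ± 0.18 SE, adjusted p = 7.79e-05). The median log2 fold change of the 9 was 2.27 and that of all loci 0.11. Each of the 9 had every SSCiPSC value above every SSC value, which holds for 31.1% of loci. The exact two-sided permutation test gave p = 0.1 for each, the smallest that 3 against 3 libraries can give.

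From SSC to fiPSC, all 9 rose as well, against 28% of the 38007 loci tested, from 2.30-fold for Espl1 (1.18 ± 0.20 SE, adjusted p = 0.00311) to 8.25-fold for Cdk1 (3.01 ± 0.16 SE, adjusted p = 8.25e-05), with no overlap (33.1% of loci in the higher direction). With 1 locus per named gene, 4281 of 11027 rose. Pttg1, at 2.94-fold, had a smaller fold than 7 of the 9. In SSCiPSC, at 7.91-fold by the ratio of means, it had a smaller fold than Ccnb1 and Cdk1 only. On the log2 scale Pttg1, at 3.01, stood below Cdk1 (3.32) only, with Ccnb1 at 2.97. Under quantile normalization Pttg1, at 2.31, stood below Plk1 (2.52), Ccnb1 (2.48) and Cdk1 (2.68). The comparisons share their SSC libraries. In these bulk RNA samples, fewer dividing cells and less mitotic RNA per cell cannot be told apart, nor can the makeup of the SSC libraries given above be separated from either. All 9 remained higher in both comparisons under quantile normalization and median-ratio scaling.

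Between fiPSC and SSCiPSC, 0 of the 9 passed the threshold in limma, and 2 of 9 (Ccnb1 and Cdk1) were lower at an unadjusted p below 0.05, against 5.37% of all loci and 10.8% of the named genes averaging 10 FPKM or more in iPSC. Under quantile normalization it was 0 of the 9. Of all 33948 loci tested, 0.0678% passed the threshold. The 9 estimates were all below 0 as deposited, from -0.38 to -0.04 with a median of -0.15 against 0.01 for all loci and -0.10 for the named genes averaging 10 FPKM or more in iPSC. Under quantile normalization their median was -0.03 against -0.01 for all loci, and 4 of them (Aurka, Aurkb, Bub1 and Cdc20) turned positive. Estimates below 0 were found in 48.9% of all loci and in 70.8% of the named genes averaging 10 FPKM or more in iPSC. In 3 of the 9 (Ccnb1, Mad2l1 and Cdk1) every fiPSC value was below every SSCiPSC value, against 9.23% of loci, and the exact two-sided permutation p of these was 0.1. That share was not taken for the named genes averaging 10 FPKM or more in iPSC. The lowest bound of the 9 confidence intervals was -0.79 (Plk1), so none of the intervals reached the -1.41 of Pttg1, a value that was itself selected for its size.

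**Figure D2:**
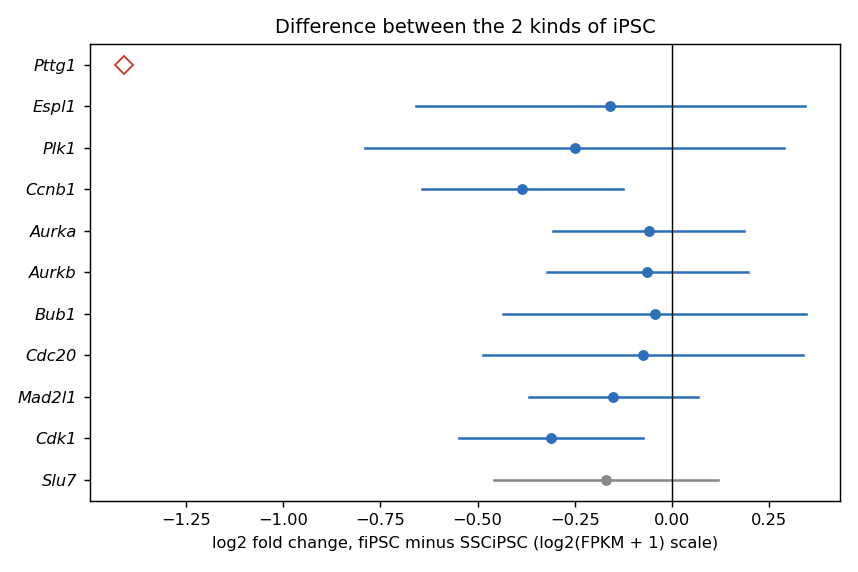
Log2 fold change of fiPSC minus SSCiPSC on the log2(FPKM + 1) scale, with 95% confidence intervals from limma for the 9 other genes (blue) and for Slu7 (grey), the gene next to Pttg1. Pttg1 (open diamond, -1.41) is shown as a description without an interval, and it lies outside all intervals, the lowest of which ends at -0.79; under quantile normalization Aurka, Aurkb, Bub1 and Cdc20 move to above 0.

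Library by library, the values of Pttg1 were set beside those of the other 9 genes as a description, since the ratios hold the values that chose Pttg1. The summed level of the other 9 genes was 158, 189 and 152 FPKM in SSC, 869, 857 and 883 FPKM in SSCiPSC and 750, 748 and 772 FPKM in fiPSC. The ratio of Pttg1 to Cdk1 was 1.12, 1.07 and 0.996 in SSCiPSC but 0.531, 0.483 and 0.463 in fiPSC. In SSC it was 1.03, 1.47 and 1.54, so that the fiPSC libraries had the least Pttg1 for their Cdk1. On the log2 scale, Pttg1 exceeded the mean of the other 9 genes by 0.18, 0.93 and 1.16 in SSC, by 1.79, 1.39 and 1.31 in SSCiPSC and by 0.32, 0.27 and 0.17 in fiPSC. SSC replicate 1 lay within the range of fiPSC, and the SSC and SSCiPSC libraries did not overlap.

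**Figure D3:**
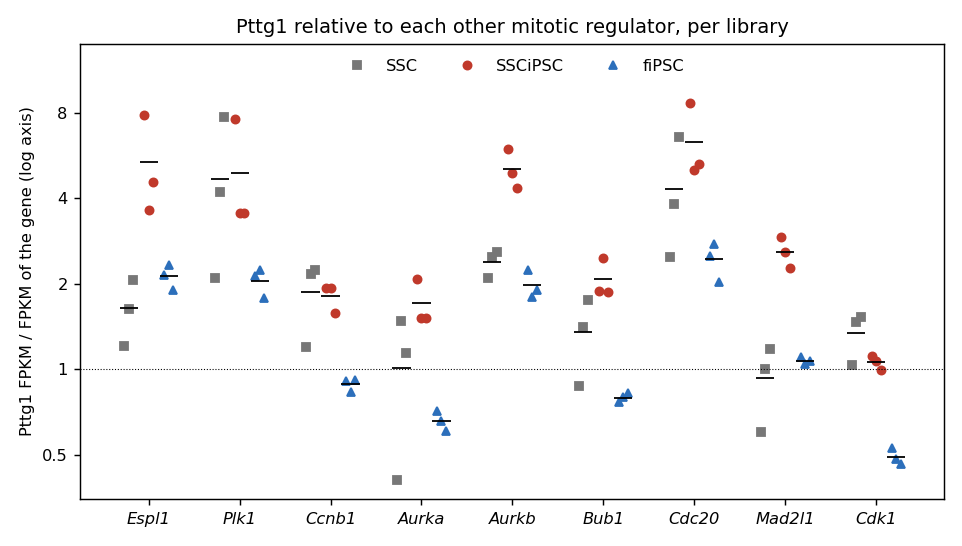
Ratio of Pttg1 FPKM to the FPKM of each of the 9 other genes on a log axis, per library (SSC grey squares, SSCiPSC red circles, fiPSC blue triangles; black lines are group means, and the dotted line marks equal FPKM). The fiPSC ratios lie below all SSCiPSC ratios for every gene, for example 0.463 to 0.531 against 0.996 to 1.12 for Cdk1, as the choice of Pttg1 makes likely.

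The order of levels also differed between the groups. FPKM is a level per transcript length, so genes can be ranked within a group. In SSC the highest means were those of Aurka (32.2 ± 8.65 FPKM, SD, n = 3), Mad2l1 (31.3 ± 5.27) and Pttg1 (29.3 ± 10.8), which lay within their spread, and the lowest were Cdc20 (7.24 ± 2.39) and Plk1 (7.12 ± 2.47). In SSCiPSC, Pttg1 (232 ± 27.6) and Cdk1 (218 ± 14.7) led with overlapping values, followed by Aurka (137 ± 10.1) and Ccnb1 (128 ± 11.6), which also overlapped. In fiPSC, Cdk1 led alone (176 ± 6.81), followed by Aurka (131 ± 7.16), Bub1 (109 ± 7.50) and Ccnb1 (97.5 ± 5.27), with Pttg1 in the fifth place. The ratio of Aurka to Aurkb was 2.86 to 3.25 in SSCiPSC and 2.73 to 3.14 in fiPSC, and that of Ccnb1 to Cdk1 0.551 to 0.629 and 0.504 to 0.582, so that the ranges of the 2 kinds of iPSC overlapped for both pairs. In SSC the ratio of Aurka to Aurkb was 5.13, 1.68 and 2.27, on both sides of the iPSC, and that of Ccnb1 to Cdk1 was 0.861, 0.678 and 0.685, above all 6 iPSC values. These ratios were not tested. The levels and ratios of Aurkb leave out the second locus over it, with a mean of 29.3 FPKM over the 9 libraries.

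The pathway around the 10 genes was read from 11 lists with 163 other genes, of which 147 had a locus. From SSC to SSCiPSC, 115 of 147 (78.2%) rose and 4 fell, where 26.2% of all loci rose and 24.1% fell. From SSC to fiPSC, 111 (75.5%) rose and 7 fell, where 28% of all loci rose and 23.7% fell. With 1 locus per named gene, 4131 rose and 3383 fell of 10912 from SSC to SSCiPSC. From SSC to fiPSC, 4281 rose and 3555 fell of 11027. The counts of each list stand against these shares. Under quantile normalization the counts were 97 and 13, and 97 and 14, and under median-ratio scaling 122 and 1, and 123 and 3. The background moved as well. Of all loci, 9061 rose and 8739 fell of 36544 from SSC to SSCiPSC, and 10049 and 9335 of 38007 from SSC to fiPSC, under quantile normalization. Under median-ratio scaling these were 11095 and 7681, and 12342 and 7767. Most genes thus rose under each scaling, while the falls named in the following for Anapc4, Dsn1, Cenpq and, in SSCiPSC, Esco1 and Stag1 did not pass under median-ratio scaling.

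Among the partners of securin and separase, 3 of the 5 with a locus rose in both comparisons. They were Sgo1 and Sgo2a, the shugoshins that protect centromeric cohesin, and Fzr1, the other activator of the anaphase-promoting complex. Sgo1 stood at 10.4, 11.2 and 13.2 FPKM in SSC, 40.8 to 44.2 FPKM in SSCiPSC and 35.2 to 40.3 FPKM in fiPSC (log2 fold change from SSC to SSCiPSC 1.77, adjusted p = 0.000248). Pttg1ip, a binding protein of securin, did not pass the threshold as deposited (-0.53, adjusted p = 0.137, and -0.92 with adjusted p = 0.0302 under quantile normalization, from SSC to SSCiPSC), at 31.1, 33.7 and 49.4 FPKM in SSC, 35.0, 21.1 and 22.2 FPKM in SSCiPSC and 27.2, 30.8 and 25.9 FPKM in fiPSC. Nor did Usp44, a deubiquitinase of Cdc20, at 4.11 to 7.83 FPKM in all 9 libraries.

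Of the anaphase-promoting complex and its ubiquitin enzymes, 10 of 16 rose in each comparison, and 2 fell from SSC to fiPSC. Under quantile normalization 6 rose and 2 fell from SSC to SSCiPSC, and 7 and 2 from SSC to fiPSC. The largest change was that of Fbxo5, the inhibitor Emi1 of the complex, from 7.25, 7.59 and 8.60 FPKM in SSC to 99.8, 97.1 and 88.2 FPKM in SSCiPSC and 84.8, 84.7 and 82.1 FPKM in fiPSC (3.45 and 3.27). In SSCiPSC, Ube2c, the ubiquitin-conjugating enzyme of the complex, was the most abundant at 188 to 259 FPKM. The subunits that fell from SSC to fiPSC were Anapc4 (-0.71, adjusted p = 0.0160) and Anapc1 (-0.44, adjusted p = 0.0287), neither of them under median-ratio scaling. The estimate of Anapc4 from SSC to SSCiPSC was -0.49 (adjusted p = 0.0725, limma) as deposited. It was -0.96 (adjusted p = 0.00649) under quantile normalization and -0.26 (adjusted p = 0.357) under median-ratio scaling.

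Cohesin, the complex that separase cuts, and its cofactors stood near the shares of all loci (26.2% and 28% rose, 24.1% and 23.7% fell). From SSC to SSCiPSC, 4 of 11 rose and 2 fell, with a median of 0.23, and from SSC to fiPSC 4 rose and 3 fell. This list depended on the scaling, with 2 rising and 5 falling under quantile normalization from SSC to SSCiPSC and 6 and 0 under median-ratio scaling. Esco2, an acetyltransferase of cohesin in S phase, rose from 15.1 to 25.8 FPKM in SSC to 92.6 to 167 FPKM in SSCiPSC (2.49), while Esco1, its relative that acts throughout the cell cycle, fell from 50.7, 49.1 and 40.3 FPKM to 33.5, 24.6 and 32.9 FPKM (-0.61, adjusted p = 0.0265). Stag1, a cohesin subunit, was lower too (-0.46, adjusted p = 0.0491, and -0.87 from SSC to fiPSC). Wapl, which releases cohesin, was the most abundant of the list at 104 to 145 FPKM in the 9 libraries and passed in neither comparison as deposited, with estimates of 0.23 and 0.04 (-0.70 and -0.77 under quantile normalization, adjusted p = 0.00570 and 0.00268, and 0.47 and 0.28 under median-ratio scaling, adjusted p = 0.0257 and 0.0617), so its direction depended on the scaling.

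The spindle checkpoint rose in 9 of 10 genes in both comparisons, with the largest change in Zwilch, a kinetochore protein of the checkpoint, from 15.2, 20.2 and 8.68 FPKM in SSC to 82.4, 56.9 and 65.8 FPKM in SSCiPSC, and the highest level in Bub3, 63.4 to 99.5 FPKM in SSC and 133 to 178 FPKM in iPSC. The rise of Bub3 (0.99 and 0.90) did not pass under quantile normalization (0.09 and 0.11), and 7 of the 10 did. All 3 partners of Aurkb in the chromosomal passenger complex rose, most of all Birc5, or survivin, from 13.4, 23.2 and 7.19 FPKM in SSC to 158, 180 and 140 FPKM in SSCiPSC (3.49). Kinetochore genes rose in 22 of 25 from SSC to SSCiPSC (Spc24 by 3.05) and in 20 of 25 from SSC to fiPSC. Dsn1, a kinetochore linker, fell in the former (-0.66, adjusted p = 0.0399) and Cenpq in the latter (-0.58, adjusted p = 0.0412). Cenpa, the centromeric histone, had the highest mean over the 9 libraries but led in no group. In SSC the highest mean was that of Cenpq (41.1 FPKM, with Cenpa at 24.55 FPKM). In SSCiPSC and fiPSC it was that of Spc24 (105 and 96.1 FPKM, with Cenpa at 104 and 91.8 FPKM).

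All 21 genes of mitotic kinesins and the spindle rose in both comparisons (20 under quantile normalization), Kif22 by 2.82 and 2.56. Ect2, which positions the cleavage furrow, had the highest mean of the list in both kinds of iPSC (152 and 128 FPKM). In SSC, Ckap5 had the highest mean (52.3 FPKM, with Ect2 at 32.9 FPKM). Condensin genes rose in 7 and 6 of 9. Top2a, the topoisomerase that disentangles chromatids and is listed with them, changed the most in this list, from 60.5, 76.3 and 63.2 FPKM in SSC to 475, 350 and 387 FPKM in SSCiPSC and 321 to 333 FPKM in fiPSC.

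Of the other mitotic kinases, cyclins and phosphatases, 11 of 13 rose and 1 fell from SSC to SSCiPSC, and 9 rose and 1 fell from SSC to fiPSC. Ccnb2, the other mitotic B cyclin, rose from 19.9, 35.3 and 27.8 FPKM to 158, 132 and 150 FPKM in SSCiPSC and 112, 120 and 108 FPKM in fiPSC, and Ccna2, cyclin A2, was the most abundant of the list. Tpx2, an activator of Aurka, stood at 24.5, 34.3 and 24.4 FPKM in SSC and at 153, 146 and 145 FPKM in SSCiPSC, a rise of 2.39. Ccnb3, a cyclin known from meiotic germ cells, went the other way. It was at 4.17, 9.58 and 2.67 FPKM in SSC and listed at 0 in all 6 iPSC libraries. It is the 1 gene counted as falling, and it passed the filter on low values through SSC alone, so that its fall is a description.

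Among regulators of cell cycle transcription, 11 of 19 rose in each comparison, E2f8 by 2.54 and 2.34, with the chromatin protein Rbbp4 the most abundant (a rise of 1.24 from SSC to SSCiPSC, and 0.22 with adjusted p = 0.126 under quantile normalization). Genes of DNA replication and S phase, taken as a reference for proliferation, rose in 14 and 15 of 15. The largest changes of all lists were here. Ccne1, the cyclin of S phase entry, went from 2.79, 3.60 and 3.56 FPKM in SSC to 109, 182 and 134 FPKM in SSCiPSC and 101 to 124 FPKM in fiPSC (5.02 and 4.73), and Rrm2, a subunit of ribonucleotide reductase, from 2.17, 4.23 and 4.18 FPKM to 126 to 146 FPKM and 120 to 130 FPKM (4.92 and 4.83). Mcm5, of the replicative helicase, had the highest mean of the list in SSCiPSC, at 213, 242 and 242 FPKM, and in fiPSC. In SSC the highest mean was that of Rrm1.

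Between fiPSC and SSCiPSC, 0 of the 146 tested genes of these lists passed the threshold in limma. At an unadjusted p below 0.05 there were 26, of which 24 were lower in fiPSC, or 16.4% of the 146, against 5.37% of all loci and 10.8% of the named genes averaging 10 FPKM or more in iPSC. The median of the 146 was -0.16 as deposited, against 0.01 for all loci and -0.10 for those named genes. It was -0.08 under quantile normalization and -0.20 under median-ratio scaling. Under quantile normalization 6 were lower and 2 higher at that level, and under median-ratio scaling 32 and 1, so the number depends on the scaling. The lowest estimate was -0.59 (Cenpi) and the highest 0.46 (Cdkn1a, the inhibitor p21). The genes of DNA replication and S phase had a median of -0.12 in this comparison as deposited, and of -0.01 under quantile normalization.

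**Figure D4:**
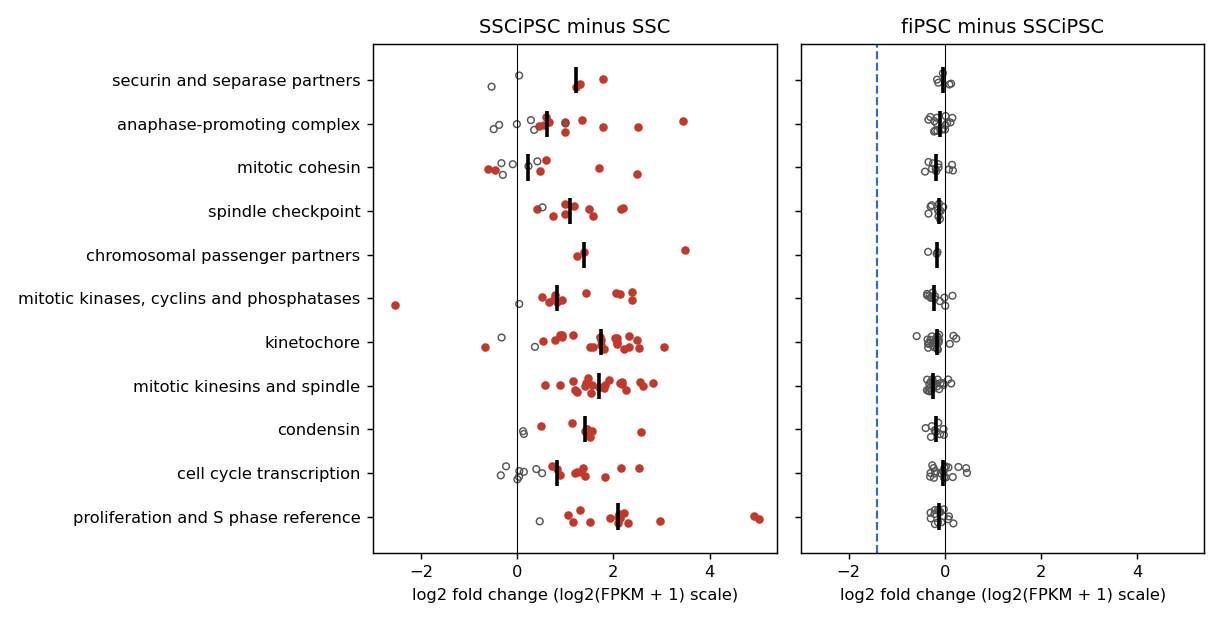
Log2 fold changes on the log2(FPKM + 1) scale for the genes of 11 lists around mitosis, SSCiPSC minus SSC (left) and fiPSC minus SSCiPSC (right). Filled red points passed an adjusted p below 0.05 in limma, open points did not, vertical marks are list medians, and the dashed line is Pttg1 at -1.41; most genes rose on the left (115 of 147), and none passed on the right, where the estimates run from -0.59 to 0.46.

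The neighbourhood of Pttg1 was read to see whether the difference between the iPSC extended along the chromosome. Slu7, a splicing factor gene 7226 bp away, stood at 52.4, 45.3 and 46.1 FPKM in SSCiPSC and 47.9, 40.2 and 39.6 FPKM in fiPSC (log2 fold change -0.17, 95% confidence interval -0.46 to 0.12, adjusted p = 0.635, limma). Within 1000000 bp, Ccnjl (-0.05), Pwwp2a (0.00) and Ttc1 (-0.33, 95% confidence interval -0.57 to -0.10, adjusted p = 0.306) were the other named genes tested, and none lay on the other side of Pttg1. Ttc1, 302027 bp away, stood at 51.8, 49.3 and 45.6 FPKM in SSCiPSC and 37.7, 38.8 and 39.1 FPKM in fiPSC, so that its groups did not overlap and its estimate had the sign of that of Pttg1, without passing the threshold. The median of the 861 named genes tested on chromosome 11 was -0.06, and that of all 10004 was -0.05.

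Likeness of pattern was measured as the root mean square difference of log2(FPKM + 1) from that of Pttg1 over the 9 libraries, each gene centred on its mean, among 5966 named genes that averaged 10 FPKM or more. The nearest were Cmtm7 (0.443), Fam81a (0.447), Ly75 (0.449), the locus named Gm12355 (0.449) and Ccnb2 (0.449). Cmtm7 had 4.28, 6.18 and 9.73 FPKM in SSC, 34.9, 26.9 and 31.1 FPKM in SSCiPSC and 18.2, 20.1 and 18.2 FPKM in fiPSC, and Ly75, a lectin receptor, 1.60 to 3.08, 20.3 to 26.6 and 9.99 to 11.4 FPKM. Among the other 9 genes, Ccnb1 was nearest to Pttg1 at 0.534, with 49 named genes nearer, and Espl1 was the farthest at 0.779, with 1093 nearer.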

How the data were processed

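Per the labels and methods, the authors trimmed paired end reads with Trimmomatic 0.32, aligned them with TopHat2 2.0.9 and Bowtie2 2.1.0, assembled loci with Cufflinks 2.2.1 and compared groups with Cuffdiff, and they deposited 1 FPKM value per locus and library (the table's header calls them RPKM). The labels give mm9, but the coordinates lie on GRCm38 genes: 92.8% of the loci with a strand overlapped a coding gene of that strand, against 38.3% and 37.9% after a shift of 1000000 bp. Gene names were therefore assigned by GRCm38 coordinates, and 1 of 54914 loci was dropped because a value was blank. A gene with several loci was read from the one with the highest mean. Strand was read from the 3 blocks in which loci of a chromosome are sorted. Depth was recovered from the steps between low FPKM values.

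Groups were compared in pairs with limma 3.58.1 in R 4.3.3 (eBayes with a trend) on log2(FPKM + 1), for loci that reached 1 FPKM in 3 or more of their 6 libraries; p-values were adjusted by Benjamini-Hochberg over all loci tested, with a threshold of 0.05. The fit was tested on simulated data. Tables and plots were made with Python 3.11.15, pandas 2.3.3, numpy 2.4.6 and matplotlib 3.10.9. Named genes were the 10 genes, the largest rise, the largest fall and the highest mean of each pathway list, any list gene called between the iPSC, the nearest neighbours of Pttg1, and the 5 genes most like it. Anapc1, Fzr1, Pttg1ip, Usp44, Ckap5, Rrm1, Cenpi, Cdkn1a, Cyct, the other neighbours and Ccnb1-ps were named after their values were seen. The genes, the lists of pathway and marker genes and the tests were chosen with earlier results of these data known. The labels give the same replicate numbers in each group, but same-numbered libraries did not deviate together (r from -0.244 to 0.0267).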

Additional observations from a re-analysis of the deposited data

How the results depend on the processing

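Other settings were quantile normalization, a smaller pseudocount (0.1), leaving out each library, a replicate block, fitting all 9 libraries, omitting the eBayes trend, dropping the filter or raising it to a mean of 5 FPKM, scaling by median ratios, 1 locus per named gene and the sum of a gene's loci. Ccnb1 with Ccnb1-ps was added after seeing the data. The counts of the other 9 genes past the threshold (9, 9 and 0) were the same under each. Pttg1 was lower in fiPSC than in SSCiPSC by -1.47 to -1.29, the latter under quantile normalization, which also gave 2.31 for SSCiPSC against SSC.

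Between fiPSC and SSCiPSC, estimates near 0 changed sign, none of them past the threshold, and the cause was not tested. Under quantile normalization they were 0.052 for Aurka, 0.028 for Aurkb, 0.068 for Bub1 and 0.017 for Cdc20. With a library left out they ran from -0.37 to 0.049 for Espl1 (the latter without SSCiPSC replicate 2), from -0.12 to 0.00090 for Aurkb (without fiPSC replicate 1), from -0.20 to 0.11 for Bub1 (without SSCiPSC replicate 1) and from -0.23 to 0.035 for Cdc20 (without SSCiPSC replicate 2; 0.030 without fiPSC replicate 2).

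The number of loci past the threshold between fiPSC and SSCiPSC (23) was 10 at a mean of 5 FPKM or more, 11 with all 9 libraries, 48 with 1 locus per named gene, 6 to 20 with a library left out (6 without fiPSC replicate 1, 7 without replicate 3, 11 without replicate 2 and 12 without SSCiPSC replicate 2) and 6 with the replicate block. The block, whose numbers do not pair the libraries, changed no call of the other 9 genes. For SSCiPSC and fiPSC against SSC (18396 and 19680), fewer loci were tested at a mean of 5 FPKM or more (10070 and 10528 called) and with 1 locus per named gene (7514 and 7836). In these comparisons the median of all loci went from 0.11 to 0.29 and from 0.17 to 0.35 under median-ratio scaling. The SSC libraries' depth limits their precision.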
